A study of Mus musculus with 6 samples.

Results

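Il4i1 and 8 other genes that lie close to Prmt1 on mouse chromosome 7 were followed in B cells with and without a deletion of Prmt1. The 9 genes were Il4i1, Atf5, Nup62, Tbc1d17, Akt1s1, Irf3, Bcl2l12, Scaf1 and Rras, out of 39017 genes in the deposited count table and 18268 genes that passed the filter on low counts. They were taken by symbol from the genes within about 0.5 Mb of Prmt1, and they were chosen from measured values of the same comparison of genotypes that is described here. Their differences between genotypes are therefore a description and carry no test. All 9 genes passed the filter on low counts.

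The cells were induced germinal center B cells (iGBs), which are spleen B cells of C57BL6/J mice grown on 40LB fibroblasts, a feeder line that supplies CD40L and BAFF. The labels give IL-4 at 5 ng/ml and 3.5 days of culture, whereas the methods of the study name a lower IL-4 concentration. Feeder cells were removed before total RNA was depleted of ribosomal RNA and sequenced. There were 3 Control libraries of the genotype Cg1-cre and 3 Prmt1-null libraries of the genotype Cg1-cre Prmt1f/f, each from a separate mouse, with 2 females and 1 male in each group. The male was replicate 1 among the Controls and replicate 3 among the Prmt1-null libraries, and ages were not given in the sources used here. Both groups carry the Cre, which is driven from the Ighg1 locus and acts once a B cell is activated. Only the Prmt1-null mice carry the floxed allele, which was backcrossed to C57BL6/J. Loss of Prmt1 and descent of the neighbouring chromosome 7 from the mice in which that allele was made cannot be told apart in this design.

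Il4i1 encodes a secreted L-amino acid oxidase that breaks down phenylalanine, tyrosine and tryptophan, and it was first found as a gene that IL-4 induces in B cells. Its tryptophan product feeds ligands of the aryl hydrocarbon receptor, a transcription factor that responds to small aromatic molecules. The other neighbours act in unrelated processes, among them stress transcription (Atf5), nuclear pores (Nup62), mTORC1 signalling (Akt1s1), antiviral transcription (Irf3) and small GTPase signalling (Rras).

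On mm10 (GRCm38), Prmt1 occupies chr7:44975989-44986568 on the minus strand. The 9 neighbours span 209.4 kb around it, at gaps of 4.65 to 159.3 kb from the gene. Atf5, Nup62, Il4i1, Tbc1d17 and Akt1s1 lie at lower coordinates, and Bcl2l12, Irf3, Scaf1 and Rras lie at higher ones. Several are packed head to head. The starts of Atf5 (chr7:44812256-44816658, minus strand) and Nup62 (chr7:44816088-44830812, plus strand) are 570 bp apart. Il4i1 (chr7:44816387-44840809, plus strand) has its first annotated start 299 bp from that of Nup62 on the same strand, and the annotated Nup62 gene lies almost wholly inside that of Il4i1. A shorter Il4i1 transcript starts at position 44836287, and the counts per gene do not show which start was used. Tbc1d17 (chr7:44834623-44849079, minus strand) ends inside Il4i1, and the 2 genes share 3423 exonic bases on opposite strands out of 4080 exonic bases of Il4i1. Akt1s1 (chr7:44848991-44855421, plus strand) starts 88 bp from the start of Tbc1d17. Bcl2l12 (chr7:44991222-44998712, minus strand) and Irf3 (chr7:44997648-45002848, plus strand) have annotated starts 1064 bp apart and share 88 exonic bases. Only a retained-intron transcript of Bcl2l12, which starts at position 44998712, reaches into Irf3. Scaf1 (chr7:45002948-45016363, minus strand) and Rras (chr7:45017961-45021647, plus strand) start 1598 bp apart and do not overlap. The strand setting of the counting was not given in the sources used here, so reads in shared exons may have been lost or assigned differently, most of all for Il4i1 and Tbc1d17.

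Promoter windows from RefSeq (GRCm38.p6), running from 250 bases before a start to 50 after it, were found for 8 of the 9 genes, in 11 windows. None was found for Tbc1d17. The 250 bases before the start are printed for the 3 genes that crowd the Il4i1 end of the cluster, because Il4i1 and Atf5 had the largest differences among the 9 and Nup62 starts within 570 bp of the first annotated starts of both. The capitals mark a GC box, the letters GGGCGG on either strand. The Irf3 and Bcl2l12 windows overlap, and the stretch between their RefSeq starts, which are 69 bp apart, is printed because it serves both genes.
Il4i1 (chr7:44836038-44836287, plus strand): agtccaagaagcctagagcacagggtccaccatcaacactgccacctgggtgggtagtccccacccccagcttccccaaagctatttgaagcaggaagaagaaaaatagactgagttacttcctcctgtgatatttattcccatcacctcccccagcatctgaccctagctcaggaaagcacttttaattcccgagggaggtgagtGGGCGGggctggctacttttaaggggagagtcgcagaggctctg
Nup62 (chr7:44815838-44816087, plus strand): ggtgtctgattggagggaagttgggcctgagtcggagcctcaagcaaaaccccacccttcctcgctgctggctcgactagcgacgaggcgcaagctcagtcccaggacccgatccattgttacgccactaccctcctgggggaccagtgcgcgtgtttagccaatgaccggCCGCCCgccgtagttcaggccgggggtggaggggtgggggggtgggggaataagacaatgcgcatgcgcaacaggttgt
Atf5 (chr7:44816659-44816908, minus strand): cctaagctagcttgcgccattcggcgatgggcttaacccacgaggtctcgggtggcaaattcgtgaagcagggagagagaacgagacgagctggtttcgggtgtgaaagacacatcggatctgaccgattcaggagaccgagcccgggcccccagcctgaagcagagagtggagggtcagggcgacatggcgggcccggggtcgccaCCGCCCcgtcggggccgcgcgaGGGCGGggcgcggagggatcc
Irf3 and Bcl2l12 (chr7:44997578-44997648, plus strand): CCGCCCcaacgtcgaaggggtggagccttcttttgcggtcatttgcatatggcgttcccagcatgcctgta

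The Il4i1 window, at the internal start, held 3 CpG dinucleotides in 300 bases. By comparison, the Nup62 window held 19 and the Atf5 window at the shared end of the cluster held 32, whereas a second Atf5 window, at position 44815658, held 8, against a median of 7 over 32817 RefSeq windows of the mouse genome. A GC box was found in at least 1 window of 7 of the 8 genes, all but Rras, and in 35.6% of all windows. The letters TTCNNNNGAA, a spacing that STAT6 is known to prefer, were in none of the 11 windows and in 6.95% of all windows. TTCNNNGAA was found in Scaf1 and in 1 of 3 Rras windows, and in 8.29% of all windows. CCAAT was found in windows of Atf5, Nup62 and Rras, and in 37.4% of all windows. The E-box CACGTG was in none of the 11 windows and in 7.15% of all windows. The cAMP response element TGACGTCA was in none of the 11 and in 1.79% of all, and the AP-1 letters TGANTCA were in none of the 11 and in 7.81% of all. The search covered both strands, and a match or its absence in 300 bases says nothing on its own about binding.

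Library totals ran from 45343250 to 62774232 gene counts, so that 3 counts correspond to 0.0475 to 0.0657 CPM (counts scaled to the library size). Normalised read counts below are counts scaled to a common library size. Prmt1, the targeted gene, had 3964, 3925 and 4838 normalised counts in Control replicates 1, 2 and 3. Its Prmt1-null values were 1745, 1478 and 1477. The groups did not overlap, and the Prmt1-null mean was 36.9% of the Control mean (log2 fold change -1.44 ± 0.10 SE, adjusted p = 1.11e-05, edgeR's quasi-likelihood test). Bulk RNA does not tell fewer cells with a transcript from less transcript per cell. Defining B cell markers were present in every library, with 8 of 8 detected and a summed level of 6809 to 7180 CPM in Control and 7139 to 7498 CPM in Prmt1-null. The fibroblast list summed to 15.8 to 20.8 CPM in Control and 20.6 to 25.1 CPM in Prmt1-null, with 8 of 9 genes detected and Postn at 0 throughout. The T cell list stayed at or below 4.53 CPM and the erythroid list at or below 9.67 CPM.

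Across all genes, 216 genes (1.18%) passed an adjusted p of 0.05 with a mean normalised count over 100. Of these, 106 (0.58% of genes tested) were higher and 110 (0.602%) were lower in Prmt1-null iGBs. Among the 9 neighbours, 2 passed in the higher direction, Il4i1 and Atf5, and 0 in the lower one. Because these values chose the genes, nothing is read from that share. Of the neighbours, 7 had a log2 fold change above 0 and 2 below 0, with a median of 0.16 against a median of 0.00 over all genes tested.

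Il4i1 was the most abundant of the 9 by normalised counts, which are not divided by length. It had 10861, 11432 and 12424 normalised counts in Control replicates 1, 2 and 3 and 16680, 17493 and 16898 in Prmt1-null replicates 1, 2 and 3. Every Prmt1-null library lay above every Control library. The means were 11572 ± 791 (SD, n = 3) in Control and 17024 ± 421 (SD, n = 3) in Prmt1-null, a 1.47-fold difference (log2 fold change 0.56 ± 0.06 SE). The myeloid list, which matters because Il4i1 is also known from macrophages and dendritic cells, summed to 99.1 to 117.0 CPM in Control and 95.3 to 117.3 CPM in Prmt1-null, mostly from Mpeg1 and Cd68. Of its 9 measured genes, 4 to 8 were detected, with C1qa at 0 in all libraries. The plasma cell list stood higher beside Il4i1. Its summed level was 996 to 1057 CPM in Control and 1127 to 1223 CPM in Prmt1-null, mostly from Irf4 and Xbp1, with 5 to 6 of 6 detected and the defining gene Tnfrsf17 at or near 0. The part of the plasma cell list in the Il4i1 difference was not tested.

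**Figure D1:**
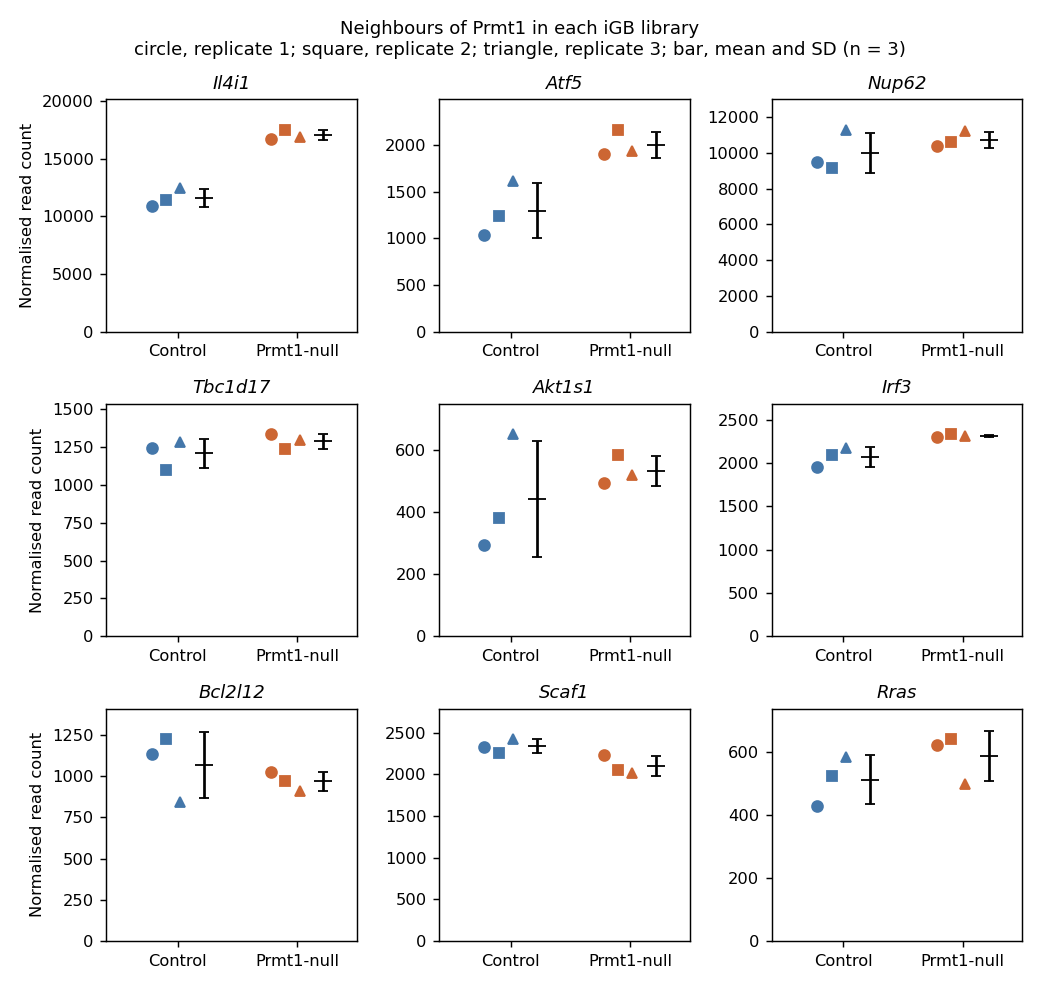
Normalised read count (vertical axis, from 0) of each of the 9 neighbours of Prmt1 in the 3 Control and 3 Prmt1-null libraries, with the mean and SD of each group beside the points. Il4i1 and Atf5 were separated furthest, Irf3 and Scaf1 were separated by small gaps, and the groups of the other 5 genes overlapped.

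Atf5 encodes a basic leucine zipper transcription factor that is translated when cells undergo stress, including stress of mitochondrial proteins. Its normalised counts were 1032, 1241 and 1616 in Control and 1907, 2161 and 1935 in Prmt1-null. The groups did not overlap, although the Control values were spread over more than the gap between the groups. The means were 1296 ± 296 (SD, n = 3) and 2001 ± 139 (SD, n = 3), and the log2 fold change was 0.63 ± 0.13 SE. Refits that left out 1 library at a time gave log2 fold changes of 0.49 to 0.81 for Atf5 and of 0.52 to 0.61 for Il4i1. Il4i1 stayed past the threshold in all 6 refits. Atf5 did so only without Control replicate 3, and it fell short without Control replicate 1 or 2 or any of the 3 Prmt1-null libraries.

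Irf3 encodes the transcription factor that switches on type I interferon genes after viral nucleic acid is sensed. It had 1952, 2095 and 2179 normalised counts in Control and 2301, 2333 and 2310 in Prmt1-null. The Prmt1-null libraries were all higher, by a small margin, with a log2 fold change of 0.16 ± 0.08 SE. Bcl2l12, a relative of the BCL2 family that is known to restrain caspases and p53, had 1135, 1227 and 842 normalised counts in Control and 1027, 969 and 910 in Prmt1-null. Control replicate 3 was the lowest of the 6 and the other Controls were the highest, so the groups overlapped (log2 fold change -0.14 ± 0.13 SE). This value was -0.09 without Control replicate 1, -0.03 without Control replicate 2 and -0.29 without Control replicate 3. The ratio of Irf3 to Bcl2l12 was 1.72, 1.71 and 2.59 in Control and 2.24, 2.41 and 2.54 in Prmt1-null, and Control replicate 3 lay above all Prmt1-null libraries.

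Nup62 encodes a central-channel protein of the nuclear pore that carries FG repeats. It had 9512, 9177 and 11292 normalised counts in Control and 10366, 10603 and 11235 in Prmt1-null. The groups overlapped, with a log2 fold change of 0.10 ± 0.08 SE, which was 0.04 without Control replicate 2, 0.20 without Control replicate 3 and 0.07 without Prmt1-null replicate 3. Set against Nup62, whose annotated start is 299 bp from that of Il4i1, Il4i1 stood at 114%, 125% and 110.0% in Control and 161%, 165% and 150.4% in Prmt1-null. The ratio of Atf5 to Nup62 was 0.108, 0.135 and 0.143 in Control and 0.184, 0.204 and 0.172 in Prmt1-null. Both ratios were higher in every Prmt1-null library than in any Control library, so Nup62 did not follow its neighbours in proportion. The ratio of Il4i1 to Atf5 overlapped between the groups, with means of 9.14 ± 1.42 (SD, n = 3) in Control and 8.53 ± 0.37 (SD, n = 3) in Prmt1-null.

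Tbc1d17, a GTPase-activating protein for Rab proteins of membrane traffic, had 1245, 1101 and 1283 normalised counts in Control and 1333, 1235 and 1294 in Prmt1-null. These values overlapped (log2 fold change 0.09 ± 0.10 SE, and 0.03 without Control replicate 2). The ratio of Il4i1 to Tbc1d17 was 9.60 ± 0.83 in Control and 13.2 ± 0.84 in Prmt1-null (SD, n = 3 each). Akt1s1 encodes PRAS40, an AKT substrate that inhibits mTORC1. It had 294, 380 and 649 normalised counts in Control and 493, 584 and 517 in Prmt1-null. Control replicate 3 was the highest of all 6 and the other Controls the lowest, and the log2 fold change was 0.27 ± 0.22 SE. Without Control replicate 3 it was 0.65, and without Control replicate 1 it was 0.05.

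Scaf1, an arginine- and serine-rich protein that binds the C-terminal domain of RNA polymerase II, was the only neighbour with every Prmt1-null library below every Control library. It had 2332, 2260 and 2425 normalised counts in Control and 2232, 2050 and 2016 in Prmt1-null (log2 fold change -0.16 ± 0.08 SE). The gap between the nearest libraries of the groups was small. Rras, a RAS-related GTPase that acts on integrins and adhesion, had 428, 523 and 584 normalised counts in Control and 622, 641 and 497 in Prmt1-null. Prmt1-null replicate 3 fell among the Controls, and the log2 fold change was 0.20 ± 0.15 SE. It was 0.09 without Control replicate 1 and 0.30 without either Control replicate 3 or Prmt1-null replicate 3. In all, 3 of the 9 genes had every Prmt1-null library above every Control library, where 9.95% of genes tested did, and 1 had every one below, where 9.92% did.

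The members differed widely in level when counts were divided by exon length. In Control, Nup62 stood at 63.1 ± 7.2 and Il4i1 at 51.1 ± 3.5 CPM per kb of exon (SD, n = 3), above 94% and 92.9% of the genes tested. The median gene stood at 3.86 on the same scale. Next came Atf5 at 11.7 ± 2.7, Irf3 at 10.9 ± 0.60, Bcl2l12 at 9.74 ± 1.83, Rras at 8.23 ± 1.27 and Scaf1 at 7.11 ± 0.25 (SD, n = 3 each). Neighbours in this order from Atf5 to Scaf1 overlapped in their Control libraries and were not separated by them. Akt1s1 at 2.59 ± 1.09 and Tbc1d17 at 2.24 ± 0.18 (SD, n = 3 each) were lowest and also overlapped. In the Prmt1-null libraries, Il4i1 stood at 75.2 ± 1.9 and Nup62 at 67.8 ± 2.8 (SD, n = 3 each), so that the order of the leading pair was turned. If every read in an exon shared with another gene had been discarded, all counts of Il4i1 would come from 560 exonic bases instead of 4080. Divided by that length, its full Control count gives 372.5 on this scale. Its rank against Nup62 thus rests on how shared exons were counted.

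**Figure D2:**
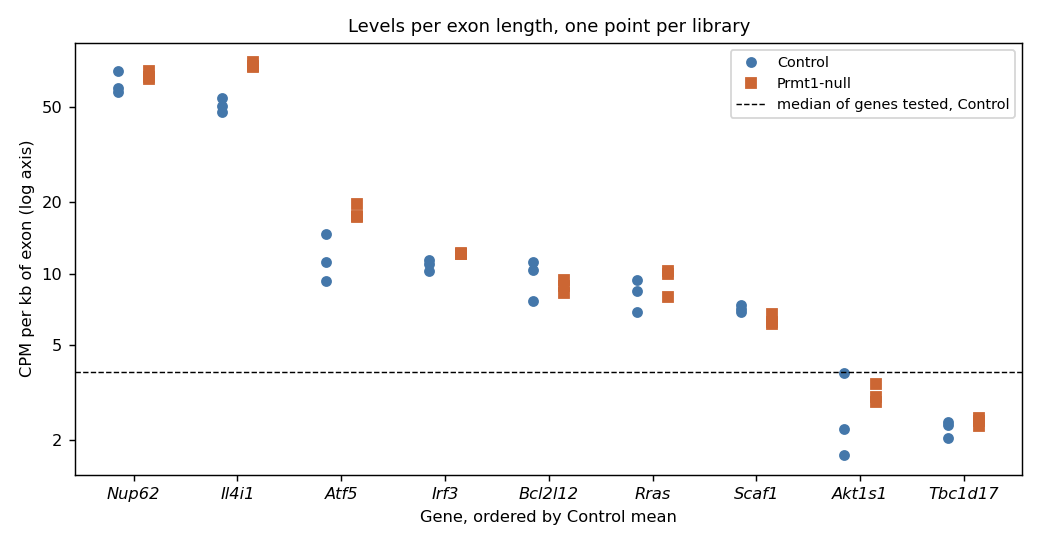
CPM per kb of exon (vertical log axis) of the 9 neighbours, ordered by their Control mean, with 1 point for each library and a dashed line at 3.86, the median of genes tested in Control. Nup62 and Il4i1 stood above the others, and Akt1s1 and Tbc1d17 lay at or below the dashed line.

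Within the Controls, several neighbours varied more than genes of like abundance did. The coefficient of variation over the 3 Control libraries was 42.0% for Akt1s1, larger than for 99.5% of genes with a mean count within a factor of 2 of its own. It was 22.9% for Atf5 (larger than for 98.4%), 18.8% for Bcl2l12 (93.1%) and 11.4% for Nup62 (90.8%). The median over all genes with a mean normalised count over 100 was 8.56% in Control and 6.80% in Prmt1-null. In the Prmt1-null libraries the same 4 genes varied by 4.18% to 8.82%. Control replicate 3 was the highest Control for 8 of the 9 genes and the lowest for Bcl2l12. Its deviation from the Control mean on the log2 scale was 0.64 for Akt1s1, 0.34 for Atf5, 0.20 for Rras, 0.18 for Nup62 and -0.32 for Bcl2l12. Its library total of 50478109 counts lay between those of the other Controls.

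**Figure D3:**
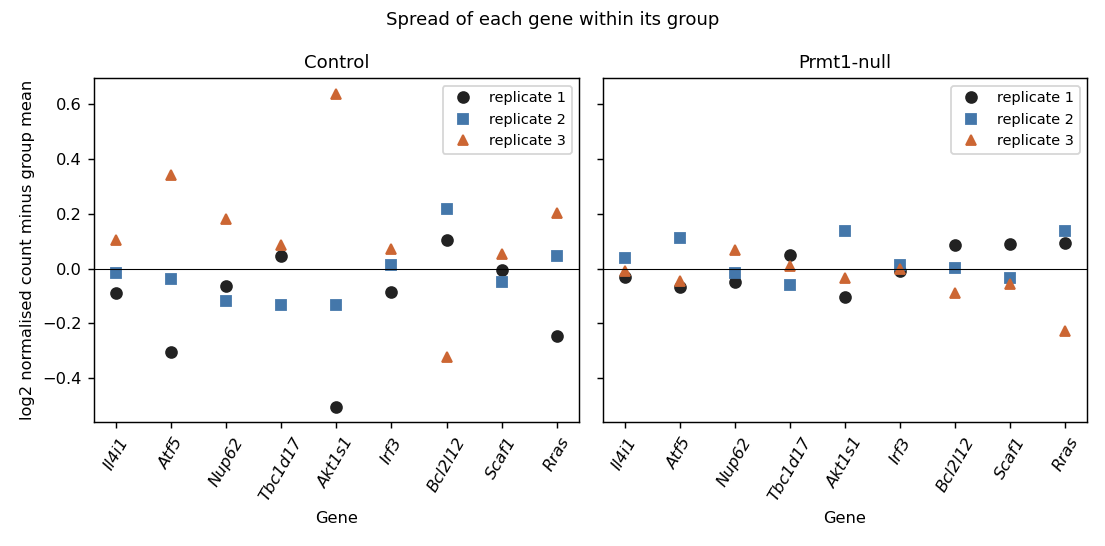
Deviation of each library from its group mean (vertical axis, log2 normalised count) for the 9 neighbours, with Control on the left and Prmt1-null on the right. Control replicate 3 lay above the mean for every gene but Bcl2l12, furthest for Akt1s1 at 0.64, and the Prmt1-null libraries lay closer together for every gene but Scaf1.

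Sex was not used to choose the genes, so it allowed a test. With genotype in the model, 12 genes (0.0657%) differed between the 4 female and 2 male libraries, 10 of them higher in females. These included the X-linked genes Kdm6a (log2 fold change 0.76), Kdm5c (0.60) and Eif2s3x (0.49), which are known to escape X inactivation. None of the 9 neighbours was among the 12, by edgeR or by DESeq2, and 1 of the 9 had an unadjusted p under 0.05 where 6.92% of genes did. That gene was Rras, with 523 to 641 normalised counts in females and 428 to 497 in males. The ranges did not overlap, as for 6.87% of genes tested in the same direction, but the difference failed the correction (log2 fold change 0.36 ± 0.13 SE, female minus male, unadjusted p = 0.0155, adjusted p = 0.648, edgeR's quasi-likelihood test). For Il4i1 the same difference was 0.07 ± 0.06 SE (adjusted p = 0.83, edgeR), and for Atf5 it was 0.26 ± 0.12 SE (adjusted p = 0.719, edgeR).

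The genes between and beyond the 9 are described next. The 9 were chosen from this same comparison, so the genes left over are not an independent sample of the neighbourhood. No conclusion about the locus is drawn from how few of them passed. Between the outermost of the 9 lie 10 other genes of the table, of which 9 were tested. All of these overlapped between the groups, and 0 passed the threshold by edgeR or by DESeq2, with 0 at an unadjusted p under 0.05. Over all genes, DESeq2 called 746 (4.08%), against 216 by edgeR. Among the genes in between, Gm15545, an antisense transcript that starts 332 bp from Prmt1, had 925, 973 and 706 normalised counts in Control and 778, 759 and 748 in Prmt1-null (log2 fold change -0.19 ± 0.13 SE). It shares exons with Bcl2l12 on the opposite strand, so its counts may not be separate from those of Bcl2l12. Ap2a1, which encodes a subunit of the clathrin adaptor AP-2, differed by 0.01 ± 0.07 SE on the log2 scale, and Med25, a Mediator subunit, by 0.05 ± 0.09 SE. The nearest annotated neighbour of Prmt1 on the other side, Cpt1c, had a mean of 17.4 normalised counts.

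Within 0.5 Mb, 63 of 80 genes were tested and 4 passed by edgeR, all higher in Prmt1-null. DESeq2 called 6, the same 4 and, both lower in Prmt1-null, Snord35b and Dhdh. Without the 9, edgeR called 2 of 54 genes, Ftl1 and Gm22133, against 1.18% of all genes. The 54 genes had 31 log2 fold changes above 0 and 23 below, with a median of 0.03. Ftl1, the ferritin light chain that stores iron, starts 473.3 kb from the start of Prmt1. It had 16531, 16256 and 18848 normalised counts in Control and 22975, 25602 and 23196 in Prmt1-null, without overlap (log2 fold change 0.48 ± 0.07 SE, adjusted p = 0.00678, edgeR). Gm22133 is annotated as a miRNA of 109 bases inside an exon of Ftl1 on the same strand, so its reads cannot be told from those of Ftl1 (log2 fold change 0.46 ± 0.08 SE, adjusted p = 0.0114, edgeR). Ftl1 lost its call without Control replicate 2 or Prmt1-null replicate 2. Gm22133 lost its call without Control replicate 2 or any of the 3 Prmt1-null libraries. Snord35b, a small nucleolar RNA, had the largest difference in the window among genes with a mean over 100. It had 134, 265 and 259 normalised counts in Control and 132, 88.5 and 99.3 in Prmt1-null, and it missed the threshold (log2 fold change -1.05 ± 0.27 SE, adjusted p = 0.0847, edgeR). Dhdh, a dihydrodiol dehydrogenase 484.4 kb from Prmt1, had 883, 902 and 994 normalised counts in Control and 681, 737 and 653 in Prmt1-null, without overlap, and missed the threshold by edgeR (log2 fold change -0.42 ± 0.11 SE, adjusted p = 0.0853, edgeR). Within 0.25 Mb, 0 of 30 genes other than the 9 passed by edgeR, with 5 at an unadjusted p under 0.05, where DESeq2 called 1, Snord35b.

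**Figure D4:**
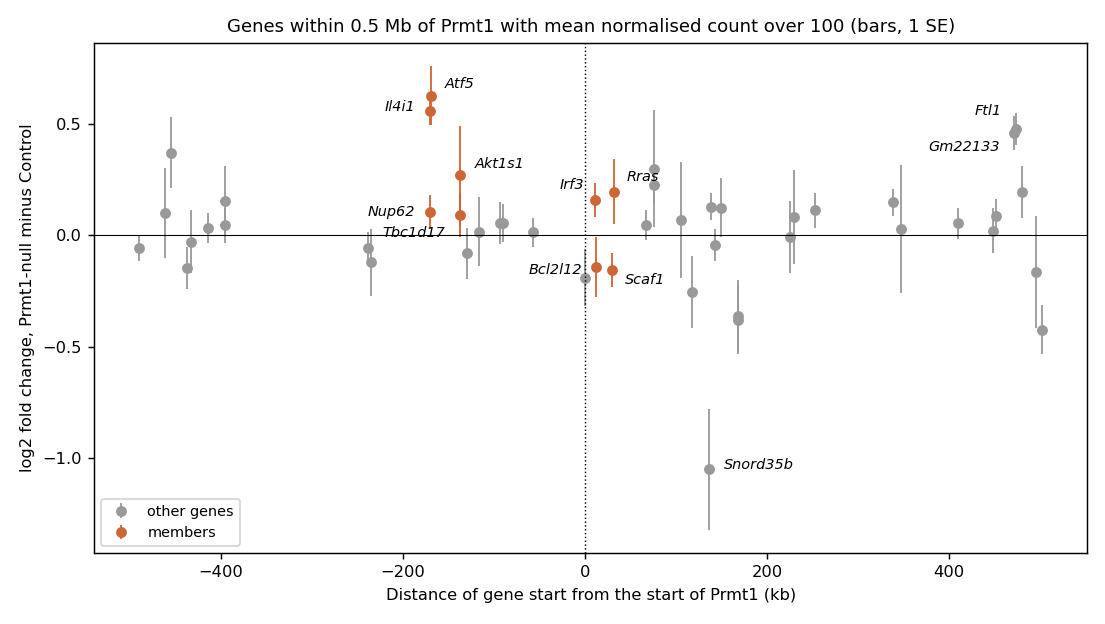
Log2 fold change (Prmt1-null minus Control, bars of 1 SE) of genes within 0.5 Mb of Prmt1 that had a mean normalised count over 100, against the distance of their start from that of Prmt1 in kb. Il4i1 and Atf5 stood at 0.56 and 0.63 among genes near 0, Ftl1 and Gm22133 stood at 0.48 and 0.46 at the far right, and Snord35b at -1.05 missed the threshold.

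Partners of the 9 genes in their known pathways were read from 10 lists with 126 genes tested, of which 4 (3.17%) passed, 2 in each direction, against 1.18% of all genes by edgeR. The lists were chosen with earlier results of these data known, so their shares are a description and carry no test. DESeq2, whose calls in each list follow, called 4.08% of all genes. The median log2 fold change over the 126 was 0.00, as over all genes.

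For Il4i1, the list of the aryl hydrocarbon receptor and tryptophan breakdown had 0 of 11 tested genes past the threshold by edgeR or DESeq2 and 5 at an unadjusted p under 0.05, where 13.5% of all genes were. Its median was 0.06. Its members did not move one way. Tdo2, a tryptophan dioxygenase, had 275, 215 and 133 normalised counts in Control and 164, 144 and 76.6 in Prmt1-null, with overlap (log2 fold change -0.70 ± 0.30 SE, adjusted p = 0.322, edgeR). Cyp1b1 and Nqo1, known targets of the receptor, had the largest log2 fold changes of the list and are named here after their values were seen. Cyp1b1 had 4.86, 3.51 and 15.4 normalised counts in Control and 60.8, 89.4 and 26.5 in Prmt1-null (log2 fold change 2.89 ± 0.67 SE, adjusted p = 0.0569, edgeR). Nqo1 had 7.29, 40.4 and 67.2 in Control and 101, 213 and 138 in Prmt1-null (log2 fold change 1.96 ± 0.51 SE, adjusted p = 0.0846, edgeR). Both genes were higher in every Prmt1-null library and missed the threshold, with mean counts under 100. Tiparp, another target and a repressor of the receptor, was lower in every Prmt1-null library (log2 fold change -0.23 ± 0.08 SE, adjusted p = 0.23, edgeR). In the list of the response to IL-4 and CD40, 0 of 13 genes passed by edgeR, 3 had an unadjusted p under 0.05 and DESeq2 called 1, the receptor gene Il4ra, and the median was 0.05. Cish, a feedback inhibitor of cytokine signalling, had the largest difference among those with a mean over 100 and overlapped between groups (log2 fold change 0.41 ± 0.20 SE, adjusted p = 0.392, edgeR).

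For Atf5, the stress response list had 1 of 15 genes past the threshold and a median of 0.11, with 7 genes higher without overlap and 0 lower, where 9.95% and 9.92% of all genes were. At an unadjusted p under 0.05 it held 7 genes, where 13.5% of all genes were, and DESeq2 called 3, Atf4, Chac1 and Sesn2. The summed plasma cell list also stood higher in every Prmt1-null library, and its part in these differences was not tested. Chac1, a glutathione-degrading enzyme of the stress response, had 745, 700 and 705 normalised counts in Control and 1013, 1080 and 1340 in Prmt1-null. All Prmt1-null libraries lay above the Controls (log2 fold change 0.68 ± 0.12 SE, adjusted p = 0.0173, edgeR). Chac1 lost its call without Control replicate 2, Prmt1-null replicate 2 or Prmt1-null replicate 3. Atf4, the main transcription factor of the pathway, had 12728, 13983 and 13045 normalised counts in Control and 15855, 15120 and 15758 in Prmt1-null and missed the threshold by edgeR (log2 fold change 0.23 ± 0.06 SE, adjusted p = 0.0865, edgeR).

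For Nup62, 1 of 13 pore and import genes passed, and the median was -0.04. Nutf2, which returns the GTPase Ran to the nucleus, had 1507, 1722 and 1619 normalised counts in Control and 2125, 2259 and 2310 in Prmt1-null (log2 fold change 0.47 ± 0.08 SE, adjusted p = 0.0174, edgeR). For Scaf1, 1 of 10 genes passed, and the median was -0.04. Polr2a, the largest subunit of RNA polymerase II, had 42067, 40764 and 42797 normalised counts in Control and 35442, 34274 and 33605 in Prmt1-null (log2 fold change -0.28 ± 0.06 SE, adjusted p = 0.0369, edgeR). For Rras, 1 of 16 genes passed, and the median was -0.05. Pik3cg, a phosphoinositide 3-kinase that RAS proteins can bind, had 2629, 2323 and 2695 normalised counts in Control and 1553, 1588 and 1982 in Prmt1-null (log2 fold change -0.58 ± 0.10 SE, adjusted p = 0.0152, edgeR). None of the 3 genes overlapped between the groups. The lists of Nup62, Scaf1 and Rras held 4, 2 and 2 genes at an unadjusted p under 0.05, and DESeq2 called 2 (Kpnb1 and Nutf2), 2 (Polr2a and Srsf1) and 1 (Pik3cg). When 1 library was left out, Nutf2 lost its call without any of the Prmt1-null libraries and Pik3cg without Prmt1-null replicate 1 or 2. Polr2a kept its call only without Control replicate 3, and it also lost it with the replicate block.

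The lists of Tbc1d17, Akt1s1, Irf3 and Bcl2l12 had 0 of 9, 0 of 15, 0 of 15 and 0 of 10 genes past the threshold by edgeR, with medians of 0.04, 0.01, -0.13 and 0.12. At an unadjusted p under 0.05 they held 2, 1, 4 and 4 genes, and DESeq2 called 0, 0, 1 (Ddx58) and 1 (Cdkn1a). Optn, an autophagy receptor, differed by -0.39 ± 0.15 SE (adjusted p = 0.244, edgeR) and Eif4ebp1, a translation repressor under mTORC1, by 0.20 ± 0.11 SE (adjusted p = 0.487, edgeR) on the log2 scale. Tlr3, a sensor of double-stranded RNA upstream of Irf3, had 211, 327 and 177 normalised counts in Control and 160, 130 and 139 in Prmt1-null. It was lower in every Prmt1-null library and missed the threshold (log2 fold change -0.74 ± 0.23 SE, adjusted p = 0.157, edgeR). Cdkn1a, the p53 target that encodes the cell cycle inhibitor p21, had 635, 724 and 630 in Control and 1043, 774 and 1111 in Prmt1-null and also missed it (log2 fold change 0.56 ± 0.14 SE, adjusted p = 0.0749, edgeR).

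**Figure D5:**
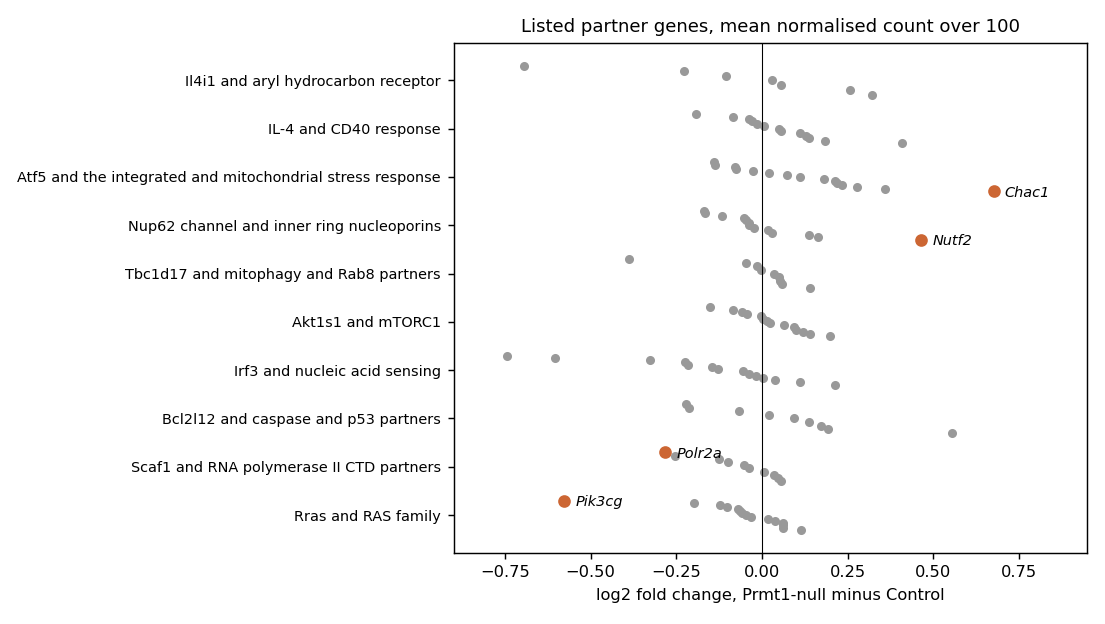
Log2 fold change (Prmt1-null minus Control, horizontal axis) of partner genes with a mean normalised count over 100, 1 row of points for each list, with the genes past the threshold named. Chac1 at 0.68 and Nutf2 at 0.47 were higher, and Polr2a at -0.28 and Pik3cg at -0.58 were lower.

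The genes whose levels ran most like those of Il4i1 over the 6 libraries, by Pearson's r of log2 CPM, were 4933423P22Rik (r = 0.999), Smim1 (0.999) and Poln (0.995). The 6 libraries fall into the 2 genotypes, so these values mostly restate the gap between them. Of all genes tested, 162 had an r over 0.95. Poln, a translesion DNA polymerase, had 117, 145 and 169 normalised counts in Control and 496, 594 and 452 in Prmt1-null. Its log2 fold change was 1.84, against 0.56 for Il4i1, although its counts were far lower. Among the other neighbours, Atf5 ranked 192nd (r = 0.94) and Irf3 ranked 207th (r = 0.94), and Scaf1 ranked last of them (r = -0.78).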

How the data were processed

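Per the labels, the tools of the authors were Trimmomatic 0.32 for trimming, STAR 2.3.0e for alignment (mm10) and featureCounts 1.4.4. What they deposited and what was used here is a table of unnormalised exon counts, 1 column for each of the 6 libraries. The methods of the study name the Ensembl gene set for mm10 as the annotation. The strand setting of the counting was not given in the sources used here. Chromosome Y genes (398) were left out, as in the methods of the study. Counts were filtered with filterByExpr (minimum count 10), scaled by TMM and tested with edgeR 4.0.16 (quasi-likelihood) in R 4.3.3, with Benjamini-Hochberg adjustment over 18268 genes. A gene was called at an adjusted p under 0.05 with a mean normalised count over 100. DESeq2 1.42.0 was an alternative. Positions, exon lengths and overlaps came from GENCODE M21 (37607 genes matched by ID and 804 by symbol, among them Nup62 and Prmt1). Named genes were the 9 neighbours, Prmt1, called genes of the 0.5 Mb window and its 3 largest changes, called and largest partners in each list, and the 3 genes most like Il4i1. Gm15545, Ap2a1, Med25, Cpt1c, Mir707, mmu-mir-7054, Dhdh, Cyp1b1, Nqo1, Tiparp, Atf4, Kdm6a, Kdm5c and Eif2s3x fall outside this rule and were chosen after their values were seen. So were genes named within the marker lists and genes named only as called by DESeq2. The members and lists were chosen with earlier results of these data known. Each mouse gave 1 library, so SDs and SEs include variation between mice, whereas the CPM worth of 3 counts covers counting error only.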

Additional observations from a re-analysis of the deposited data

How the results depend on the processing

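Il4i1 kept its direction and its call in all 15 alternatives, and all 9 neighbours kept the sign of their log2 fold change. Leaving out 1 library moved some by more than their SE, such as Akt1s1 from 0.27 ± 0.22 SE to 0.65 without Control replicate 3. With all libraries, removing GC content and length trends took Nup62 from 0.10 to 0.05 and Irf3 from 0.16 to 0.10. DESeq2 with its prior gave 0.15 for Akt1s1. Atf5 kept its call in the 9 alternatives with all libraries and without Control replicate 3, and lost it in the other 5 refits without 1 library. The number of neighbours called was thus 1 to 2 in those refits. With the replicate block, 2 neighbours, 4 window genes, 3 partner genes and 151 genes in all were called. The mice differ, and deviations of same-numbered libraries correlated at -0.31, 0.22 and -0.34, so the numbers were not taken as pairs.

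The number of genes called, 216, became 746 with DESeq2, with or without its prior, 675 without a filter on low counts and 342 with GC content and length trends removed, an alternative chosen after the data were seen. Leaving out 1 library gave 31 to 340. Window genes called were 7 without the filter, 2 in a window of 0.25 Mb and 1 to 5 without 1 library. Partner genes called were 11 with either DESeq2 fit, 10 without the filter and 0 to 6 without 1 library. Genes called between the sexes were 28 with DESeq2, 80 without the filter and 9 to 24 without 1 library, with 0 neighbours in each. The cause of these shifts was not tested. Groups of 3 mice limit what can be called, and counts are deep for all 9 genes.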
